A study of Triticum aestivum with 18 samples.

Results

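Roots of wheat seedlings treated with 5 mM 3-MA and 150 mM NaCl (TMG) were compared with control roots (CG) by RNA-seq, gene by gene over the whole count table. The members of the comparison were the 3 TMG and the 3 CG libraries, 6 of the 18 libraries in the series, and 73516 of the 134610 genes in the table had enough counts to be tested. All seedlings were cultivar Jimai 22. CG seedlings received neither agent, TMG seedlings received 3-MA 5 h before NaCl, and roots were taken 4 days after the NaCl treatment, with 10 roots pooled into each of 3 biological replicates. Roots given 150 mM NaCl alone (TG, 3 libraries) were used for the comparisons TG against CG and TMG against TG, and leaves of the control (CY) and of the 3-MA plus NaCl seedlings (TMY), 3 libraries each, for a lookup in another tissue. No library of roots with 3-MA alone was analysed here, so that in TMG against CG the changes due to NaCl, to 3-MA and to the 2 together cannot be told apart.

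Autophagy encloses parts of the cytoplasm in double-membrane vesicles and delivers them to the vacuole, where they are degraded and reused. 3-MA (3-methyladenine) inhibits phosphatidylinositol 3-kinase, which makes the membrane lipid that autophagosome formation needs, and it is not fully specific to this enzyme. NaCl lowers the water potential around the root and loads its cells with sodium, and roots under salt usually grow more slowly.

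Genes whose p-value in edgeR's quasi-likelihood test stayed at or under 0.05 after Benjamini-Hochberg adjustment were called DEGs, with no limit on the fold change. Levels are in CPM (counts scaled to library totals with TMM factors), and each fold change is on the log2 scale, followed by its standard error. Total counts were 27156078 to 30365478 in CG, 28900871 to 31890482 in TG and 29631294 to 32966728 in TMG. The leaf markers fixed for a check of the tissue (123 chlorophyll a-b binding protein and Rubisco small chain genes) summed to 329 to 556 CPM in CG, 70.3 to 120 CPM in TG and 20.3 to 27.5 CPM in TMG, against 90210 to 202900 CPM in control leaves. The 15 genes chosen as root markers went against their name, with 12.1 to 15.0 CPM in CG, 42.1 to 58.0 CPM in TMG and 236 to 275 CPM in control leaves, and were not used further. In bulk tissue, fewer cells of a type and less RNA per cell cannot be told apart. Bread wheat holds 3 similar subgenomes and many gene families with near-identical copies, among which reads may have been divided, so that values of single members are uncertain.

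TMG roots differed widely from control roots. A total of 41578 DEGs (56.6% of 73516 tested) were called, of which 20642 were upregulated (28.1%) and 20936 downregulated (28.5%). The median size of the change among DEGs was 1.18 on the log2 scale, and 24260 DEGs changed by at least 1 on that scale. Counts scaled by library size alone, which raised the median gene by 0.26 on the log2 scale, gave 64.5% upregulated among the DEGs in place of 49.6%, so the balance of directions depends on the scaling. Under the same test TG against CG gave 26032 DEGs (35.6%, with 18.5% of genes up and 17.1% down), and TMG against TG gave 14879 DEGs (20.2%, with 8.16% up and 12% down). In leaves, TMY against CY gave 23794 DEGs (37.2%, with 16.6% up and 20.6% down).

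**Figure D1:**
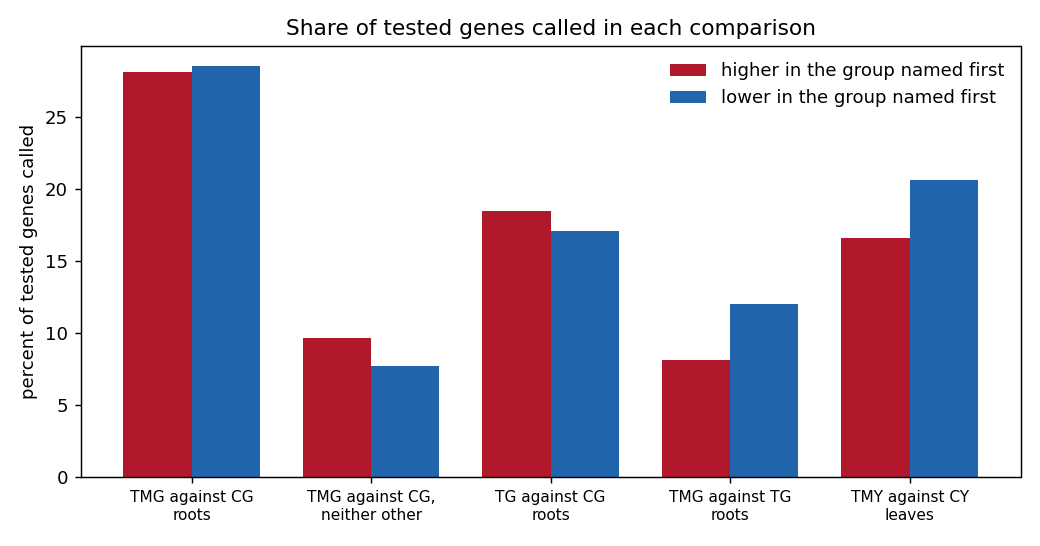
Percent of tested genes called higher (red) or lower (blue) in each comparison, with 3 libraries a group. TMG against CG reached 28.1% up and 28.5% down, and genes called there but in neither other root comparison made up 9.65% up and 7.74% down.

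Among the TMG against CG DEGs, 12782 were called in neither TG against CG nor TMG against TG. They made up 17.4% of the genes tested, with 7091 upregulated (9.65%) and 5691 downregulated (7.74%), and they were chosen by these 3 tests, so that their values below are a description. The 3 comparisons share libraries. The upregulated genes had a median log2 fold change of 0.78 in TMG against CG, 0.40 in TG against CG and 0.31 in TMG against TG. The downregulated genes had medians of -0.82, -0.40 and -0.35 in the same order. By these medians the NaCl roots lay between the control and TMG levels. The choice of the list favours such a place, so it is no separate result. Of the 12782 genes, 11483 were tested in all 3 comparisons and 1299 were left out of another fit by the filter on low counts. An adjusted p of 0.1 or less was reached by 3197 of them in TG against CG and by 2210 in TMG against TG, whereas 5030 had an unadjusted p above 0.05 in both.

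The threshold separated genes with almost the same values. The gene for translation initiation factor 4E-1 (TraesCS3A02G521500) lay just outside the list with an edgeR adjusted p of 0.04998 in TG against CG. The gene for MAK16, a ribosome assembly factor known from yeast (TraesCS7A02G521900), lay just inside with an adjusted p of 0.050004 in TMG against TG, and a coatomer subunit gene (TraesCS1D02G156000) lay just outside with 0.049989.

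The list depends on the NaCl libraries. TG replicate 1 stood nearer to the controls than the other NaCl roots did, with a mean correlation across genes of 0.907 to the CG libraries against 0.892 and 0.893 for replicates 2 and 3, and of 0.921 to TMG against 0.952 and 0.948. In 56.5% of the 12782 genes TG replicate 1 was nearer to the CG mean than to the TMG mean, against 35.6% for replicate 2 and 41.5% for replicate 3. For 3328 genes it was the single NaCl library on the control side. Over all 41578 DEGs these shares were 43.0%, 29.4% and 33.6%. Without TG replicate 1 the list held 11202 genes, of which 9369 were shared with the full list (73.3% of it). Without TG replicate 2 it held 21038 genes, and with the 3 root groups in one fit it held 8574.

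In subgenome and gene length the list was close to the genes tested as a whole, and its level lay below that of the other DEGs. The 12782 genes were 17.1% of the tested A-subgenome genes, 17.7% of the B genes and 17.5% of the D genes. Their median gene length was 1616 bp against 1642 bp over all tested genes. Their median level, as log2 of the mean CPM over the root libraries, was 1.89, against 2.67 for the other DEGs and 1.66 for genes not called. Annotated protein-coding genes made up 10981 of them and new genes of the authors 1767. A description in the table was present for 2119, so most of them are named by identifier alone.

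Core histones, the proteins H2A, H2B, H3 and H4 around which DNA is wound, had the most members in the list among the gene groups examined. Their transcripts are made mainly during DNA replication, in dividing cells. Of 393 tested core histone genes, 333 were downregulated and 9 upregulated in TMG against CG, with a median log2 fold change of -1.32 against 0.03 over all genes. All 4 classes moved down, with 88 of 101 H2A genes, 78 of 86 H2B genes, 74 of 92 H3 genes and 92 of 108 H4 genes downregulated. Under the other scalings and DESeq2, 303 to 334 histone genes were downregulated. Called in neither other root comparison were 196 downregulated histone genes (7.74% over all genes tested), namely 44 H2A, 19 H2B, 61 H3 and 71 H4 genes and 1 without a class in this split.

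Histone levels show where the NaCl libraries lay. The summed level of the core histone genes was 6045, 5420 and 5511 CPM in CG1 to CG3, 5277, 3710 and 3312 CPM in TG1 to TG3, and 3132, 3195 and 3063 CPM in TMG1 to TMG3. TMG libraries lay close together and below all others, while TG1 was near the controls and TG2 and TG3 were near TMG. In 157 of the 200 histone genes of the list, TG1 was the single NaCl library on the control side. In TG against CG 104 histone genes were downregulated with all libraries and 285 without TG1. The number called in neither other comparison and downregulated fell from 196 to 40 without TG1, was 119 with the 3 root groups in one fit, and rose to 275 without TG2. TMG against TG gave 51 downregulated histone genes with all libraries and 50 without TG1.

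Single histone genes had the same order of libraries. TraesCS1D02G039900, an H2A gene on chromosome 1D (19184952 to 19185867, plus strand, in the Chinese Spring assembly that the authors used), had 27.1, 25.1 and 22.4 CPM in CG, 21.4, 11.6 and 8.73 CPM in TG and 8.38, 8.43 and 7.65 CPM in TMG, with a TMG against CG log2 fold change of -1.58 ± 0.12 (SE). Here the TMG and CG libraries did not overlap, and all TG libraries lay between them. The H3 gene TraesCS1B02G378400 had 26.7, 25.3 and 24.0 CPM in CG, 21.6, 12.1 and 10.1 CPM in TG and 8.41, 9.02 and 7.76 CPM in TMG (-1.56 ± 0.11). Again TG1 lay nearest to the controls. The H4 gene TraesCS5B02G301800 had 18.2, 15.3 and 15.3 CPM in CG, 15.3, 6.15 and 5.92 CPM in TG and 4.03, 5.45 and 4.09 CPM in TMG (-1.82 ± 0.15). For this gene TG1 overlapped with the controls. Not every histone gene fell. The H2B gene TraesCS4A02G099900 had 34.2, 28.7 and 29.3 CPM in CG, 44.3, 49.3 and 42.0 CPM in TG and 53.4, 47.8 and 53.8 CPM in TMG, and was upregulated by 0.78 ± 0.11 (edgeR adjusted p = 0.000156).

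**Figure D2:**
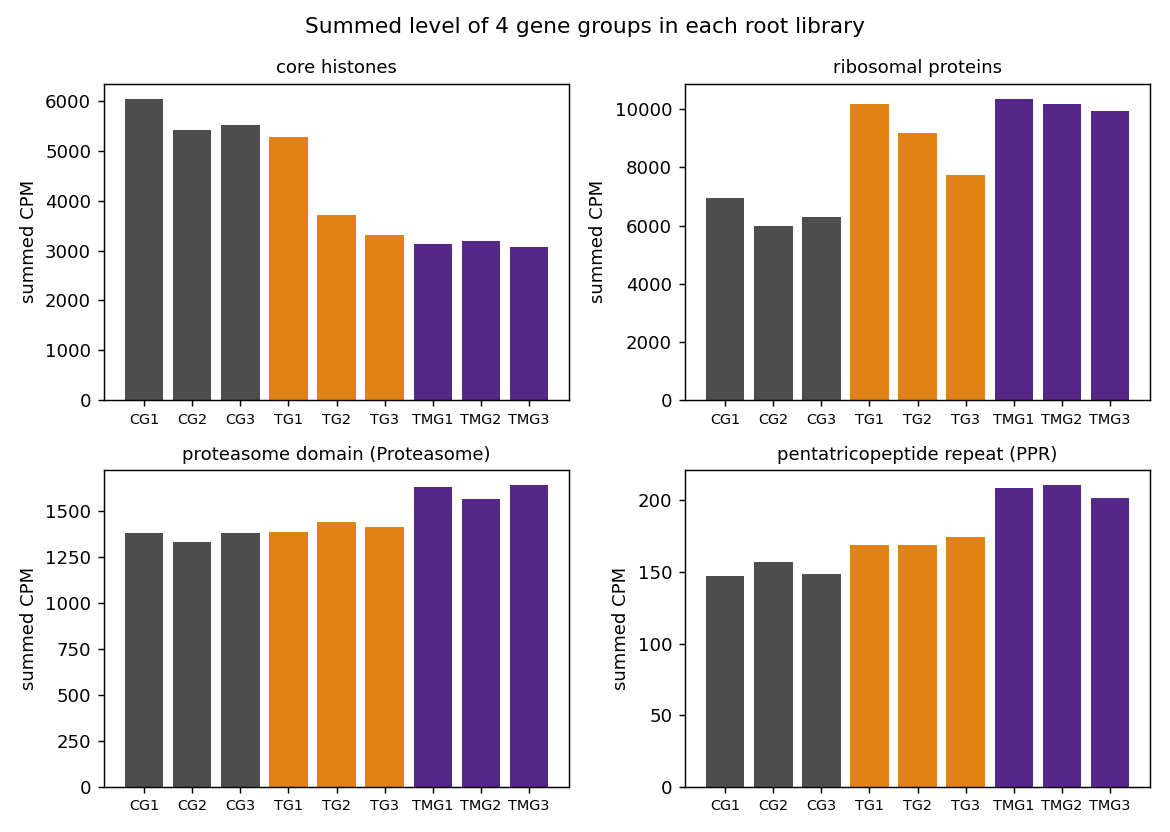
Summed CPM of 4 gene groups (bars) in each of the 9 root libraries, grey for CG, orange for TG and purple for TMG. Core histones fall from 5420 to 6045 CPM in CG to 3063 to 3195 CPM in TMG, with TG1 near the controls, whereas the other 3 groups are higher in each TMG library than in any CG library.

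Histone genes behaved differently in leaves. Of 150 histone genes tested in TMY against CY, 51 were upregulated and 12 downregulated (16.6% and 20.6% over all genes), with a median log2 fold change of 0.64. In a fit of root and leaf libraries together, edgeR's test of the difference between the change in roots and the change in leaves was significant, with the root change lower, for 99 of these 150 genes and, with the root change higher, for 2. Over the 58554 genes tested in both tissues this difference was called for 27.6%, with the root change higher in 11.6% and lower in 16%. The H2B gene TraesCS3B02G390000 (chromosome 3B, 613811305 to 613811952, minus strand) had 14.3, 11.5 and 15.4 CPM in CG and 4.76, 3.83 and 4.30 CPM in TMG. In leaves it had 0.368, 0.0944 and 0 CPM in CY and 1.44, 0.447 and 2.21 CPM in TMY, so that it was low in leaves in both groups but higher in every TMY library than in every CY library.

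**Figure D3:**
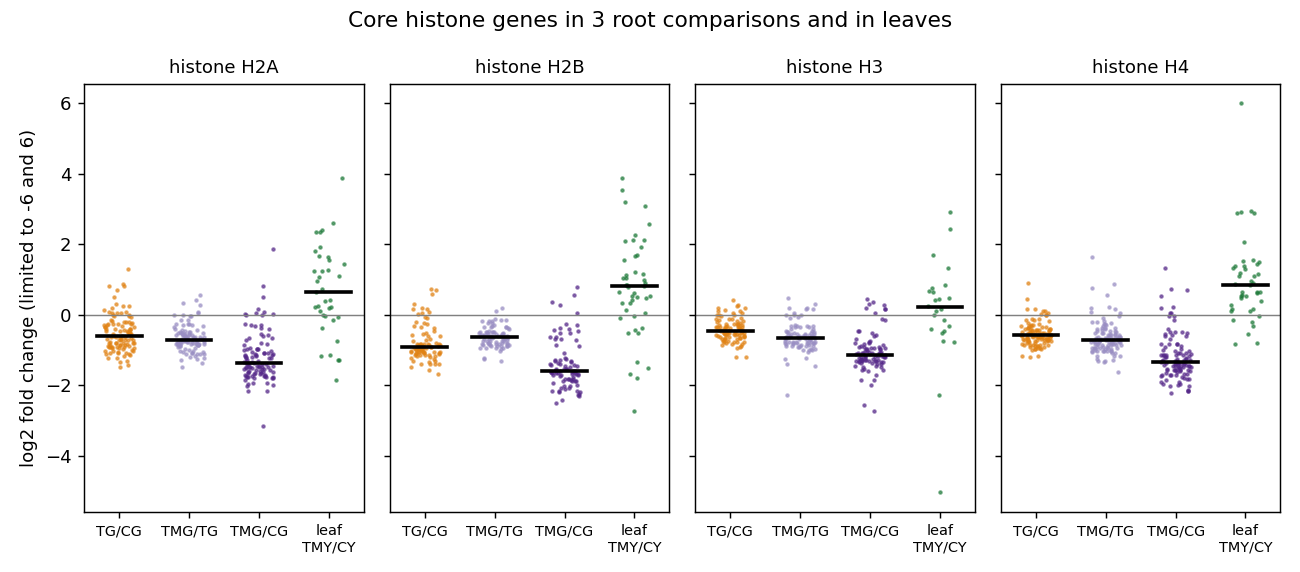
Log2 fold changes of single core histone genes (points, medians as bars) by class in the comparisons TG against CG, TMG against TG and TMG against CG of roots and TMY against CY of leaves. Medians in TMG against CG are -1.39 for H2A, -1.59 for H2B, -1.14 for H3 and -1.35 for H4, whereas the leaf points lie mostly above 0.

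Other genes of cell division changed less uniformly. The list of cyclins, kinesins and replication enzymes had 256 tested members, of which 100 were downregulated and 38 upregulated (median -0.33). With library size as the only scaling these counts were 63 and 59. Its pattern also took retroelement entries described as reverse transcriptases, so its name is not true of all members. The TCP domain, found in transcription factors that control cell proliferation, was carried by 31 tested genes, of which 21 were downregulated and 3 upregulated. Called in neither other comparison were 7 of the downregulated TCP genes (7.74% over all genes tested), and the count was again 7 without TG1. TraesCS4A02G355900 was on the list, with 27.2, 23.7 and 34.0 CPM in CG, 23.0, 12.0 and 9.15 CPM in TG and 6.996, 8.45 and 7.23 CPM in TMG (-1.88 ± 0.15). Domain lists here and below were taken from the protein domain column after values had been seen, so they describe and test nothing.

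Genes for ribosomal proteins, the structural proteins of the ribosome, moved in the opposite direction to the histones. Of 236 tested genes, 175 were upregulated and 11 downregulated (median 0.64), and 172 to 195 were upregulated under the other scalings and DESeq2. Their summed level was 6941, 5990 and 6297 CPM in CG, 10180, 9178 and 7740 CPM in TG and 10360, 10190 and 9954 CPM in TMG. Every NaCl library lay above every control here, and TG1 was close to TMG, unlike its place among the histones. Within the group 46 genes were upregulated in TMG against CG and in neither other comparison (9.65% over all genes tested). This count was 58 without TG1, 119 without TG2 and 19 with the 3 root groups in one fit, so it rests on the NaCl libraries and the fit. The 40S ribosomal protein S6 gene TraesCS2D02G064500, whose product is part of the small subunit, had 25.6, 20.8 and 21.0 CPM in CG, 36.3, 30.8 and 23.9 CPM in TG and 36.4, 40.6 and 37.98 CPM in TMG (0.80 ± 0.12). TG1 lay just under the TMG libraries and TG3 near the controls. In leaves 89 of 243 ribosomal protein genes were upregulated and 6 downregulated, against 16.6% and 20.6% over all genes tested there.

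Genes of the proteasome, which degrades proteins tagged with ubiquitin, shifted by a small amount that showed in TMG against CG. Of 63 tested genes with the proteasome subunit domain, 33 were upregulated and 3 downregulated, with a median of 0.30. Of the 33, 21 were called in neither other comparison (9.65% upregulated over all genes tested). The count was again 21 without TG1, with no check that these were the same genes, 28 without TG2 and 17 in one fit. Summed CPM were 1376, 1327 and 1376 in CG, 1385, 1439 and 1409 in TG and 1629, 1560 and 1636 in TMG, so the NaCl libraries lay just above the controls and all 3 TMG libraries above them. The alpha subunit gene TraesCS4D02G157700 (chromosome 4D, 216742188 to 216745995) had 10.1, 9.25 and 10.2 CPM in CG, 12.9, 11.8 and 12.4 CPM in TG and 15.8, 14.5 and 14.0 CPM in TMG (0.61 ± 0.11). The 3 groups did not overlap for this gene. In leaves 1 of the 63 genes was called, upward, with a median of 0.15. The change in roots was called higher than that in leaves for 4 genes and lower for 2.

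The wider list of proteasome and ubiquitin genes by description, most of them ubiquitin ligases that choose the proteins to be degraded, had 118 upregulated and 118 downregulated of 407 tested members, close to the 28.1% and 28.5% over all genes. With library size as the only scaling this became 194 and 86, so no direction is given for it. In neither other comparison, 60 were up and 33 down with all libraries, and 80 and 60 without TG2. F-box proteins, which hold the target in 1 type of ubiquitin ligase, had 137 upregulated and 37 downregulated of 329 tested genes, and 74 and 15 in neither other comparison (41 and 7 with the 3 root groups in one fit). Over all genes tested, 9.65% were up and 7.74% down in neither other comparison. The F-box gene TraesCS6B02G001000 was downregulated, from 21.4, 15.3 and 16.1 CPM in CG through 16.3, 4.64 and 3.28 CPM in TG to 3.89, 3.17 and 2.01 CPM in TMG (-2.52 ± 0.22). TG1 overlapped with the controls and TG3 with TMG, and TG2 lay just above TMG.

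Among proteins that handle RNA, pentatricopeptide repeat proteins, which bind and process transcripts of mitochondria and chloroplasts, had 46 upregulated and 2 downregulated genes of 171 tested. The share upregulated was no higher than the 28.1% over all genes, while the share downregulated was far under the 28.5% over all genes, and 123 genes were not called. Of those upregulated, 34 were called in neither other comparison, and without TG1 the count was again 34, with no check that these were the same genes. Their summed levels were 147, 157 and 149 CPM in CG, 169, 169 and 175 CPM in TG and 209, 211 and 202 CPM in TMG, in 3 groups without overlap. DESeq2 called 30 genes upregulated, and library size scaling 73. LSM domain proteins, which act in splicing and mRNA decay, had 25 upregulated genes of 47, of which 14 were in neither other comparison (8 with the 3 root groups in one fit), and DESeq2 called 20 upregulated. Of 30 genes with the RNase PH domain of the RNA-degrading exosome, 14 were upregulated and 2 downregulated, 8 and 1 of them in neither other comparison. For all of these lists, the shares in neither other comparison over all genes were 9.65% up and 7.74% down.

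**Figure D4:**
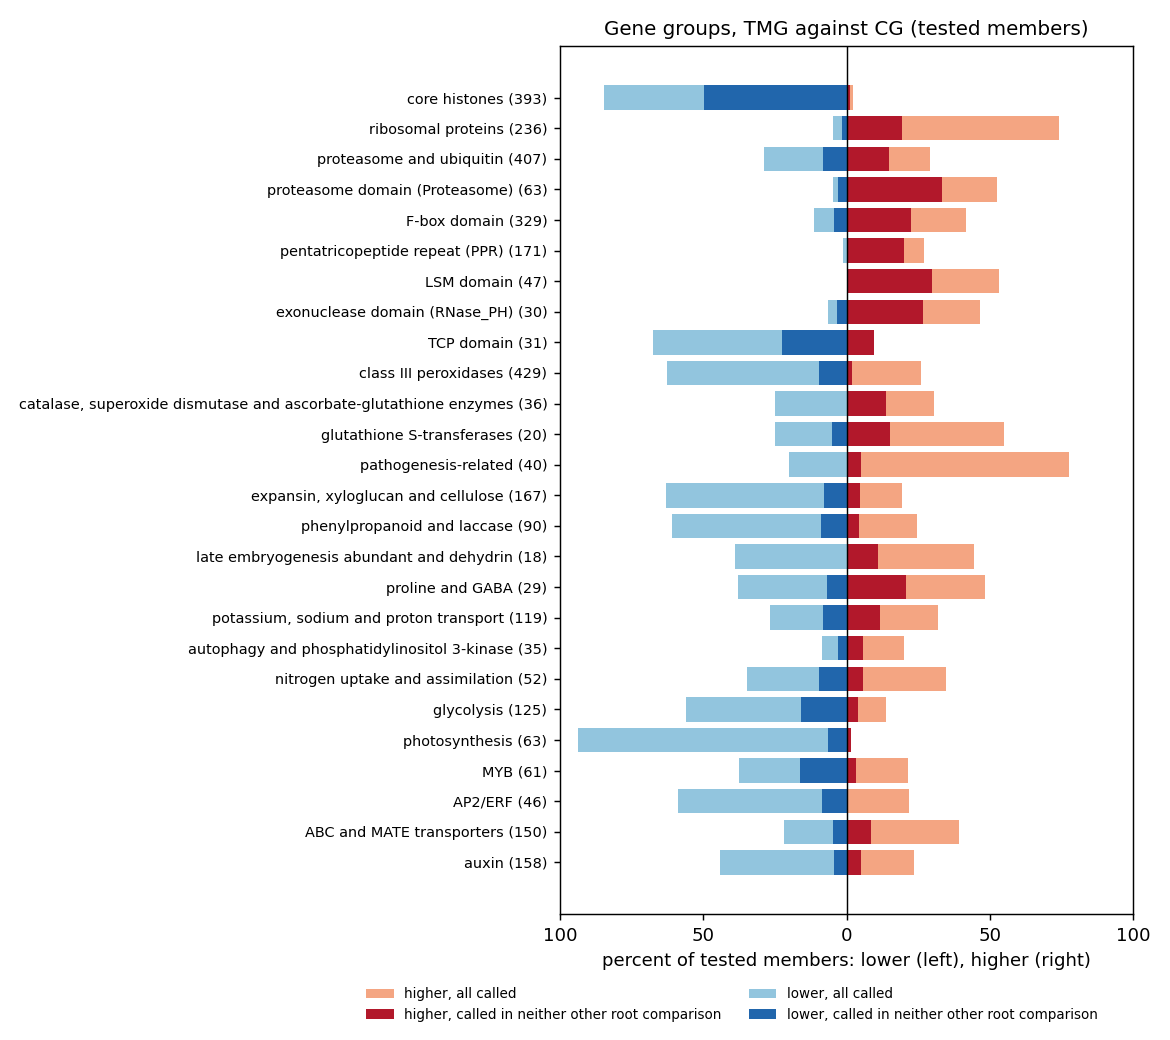
Percent of the tested members of each gene group that were downregulated (left) or upregulated (right) in TMG against CG, with the members called in neither other root comparison in dark colours. Of the 393 core histone genes 333 are downregulated and 196 of these lie in the dark part, whereas of 236 ribosomal protein genes 175 are upregulated.

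The named genes of the list were the 10 largest rises and falls with a description, a mean log2 CPM of at least 3 and no overlap between TMG and CG. The largest rise was that of TraesCS5B02G443400 (chromosome 5B, 616265360 to 616266511), a PR-1 gene, a family induced in pathogen defence. It had 12.8, 12.9 and 15.6 CPM in CG, 7.06, 22.6 and 40.6 CPM in TG and 85.5, 71.3 and 62.8 CPM in TMG (2.44 ± 0.15). The NaCl libraries ranged from below the controls to above them, and all TMG libraries were higher. Its log2 fold change was 0.79 in TG against CG and 1.64 in TMG against TG. Among the other rises were 2 genes of the DETOXIFICATION family, which export small molecules from the cell or into the vacuole. TraesCS5D02G332300 had 8.83, 10.1 and 19.5 CPM in CG, 15.0, 29.8 and 24.3 CPM in TG and 34.0, 29.1 and 42.5 CPM in TMG (1.49 ± 0.26). Both NaCl and control libraries were widely spread for this gene.

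A potassium transporter gene, TraesCS5B02G197300, had 9.23, 10.8 and 14.8 CPM in CG, 12.3, 15.5 and 23.8 CPM in TG and 21.5, 25.2 and 27.3 CPM in TMG (1.12 ± 0.17). The NaCl libraries overlapped with both groups. An alpha tubulin gene, TraesCS4A02G065700, which encodes a building block of microtubules, had 9.02, 12.7 and 12.2 CPM in CG, 9.79, 17.5 and 18.9 CPM in TG and 21.3, 22.0 and 27.1 CPM in TMG (1.09 ± 0.15). Here TG1 lay within the control range. The metallothionein gene TraesCS1A02G115900, for a small metal-binding protein, had 695, 634 and 661 CPM in CG, 699, 961 and 1076 CPM in TG and 1145, 1211 and 1284 CPM in TMG (0.90 ± 0.12). TG1 again stood next to the controls. A glycosyltransferase, a ribulose-phosphate 3-epimerase, a carboxypeptidase, a purple acid phosphatase and the other DETOXIFICATION gene completed the rises, with log2 fold changes of 0.91 to 1.19.

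The largest fall of the list was in the endoglucanase gene TraesCS7D02G201000 (chromosome 7D, 159735977 to 159739380), for an enzyme that cuts glucan chains of the cell wall. It had 144, 144 and 150 CPM in CG, 107, 37.0 and 24.9 CPM in TG and 24.7, 18.4 and 11.3 CPM in TMG (-2.98 ± 0.23). TG1 was nearest to the controls and TG3 nearly reached TMG, and the log2 fold change was -1.34 in TG against CG and -1.64 in TMG against TG. In leaves this gene was downregulated as well, from 26.5, 23.5 and 24.9 CPM in CY to 3.54, 3.64 and 2.96 CPM in TMY (-2.80, edgeR adjusted p = 6.69e-05), without overlap between the groups.

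Xyloglucan endotransglucosylase/hydrolase genes, whose enzymes cut and rejoin wall xyloglucan, gave 2 more falls. TraesCS7B02G327700 had 51.1, 44.7 and 49.9 CPM in CG, 30.7, 7.57 and 4.26 CPM in TG and 11.9, 12.8 and 8.53 CPM in TMG (-2.11 ± 0.15). TraesCS7A02G427600, on the homoeologous chromosome group, had 65.8, 57.5 and 53.3 CPM in CG, 41.4, 10.98 and 5.03 CPM in TG and 18.2, 17.8 and 10.7 CPM in TMG (-1.89 ± 0.19). In both genes TG2 and TG3 were at or below the TMG level, and the spread of the NaCl libraries was wider than in either other group. Both were downregulated in leaves, with log2 fold changes of -2.06 and -1.92 (edgeR adjusted p = 0.0119 and 0.00629).

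The class III peroxidase gene TraesCS3D02G184900, for an enzyme of the cell wall that uses hydrogen peroxide, had 38.9, 35.5 and 38.7 CPM in CG, 36.4, 15.5 and 9.60 CPM in TG and 12.5, 8.78 and 8.24 CPM in TMG (-1.91 ± 0.15). TG1 lay within the control range. A patatin gene (TraesCS5B02G379300), of a lipid-cleaving enzyme family, had a log2 fold change of -1.69 ± 0.19, and its TG2 and TG3 libraries lay below all TMG libraries at 3.52 and 3.12 CPM. The other 5 falls were histone genes.

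**Figure D5:**
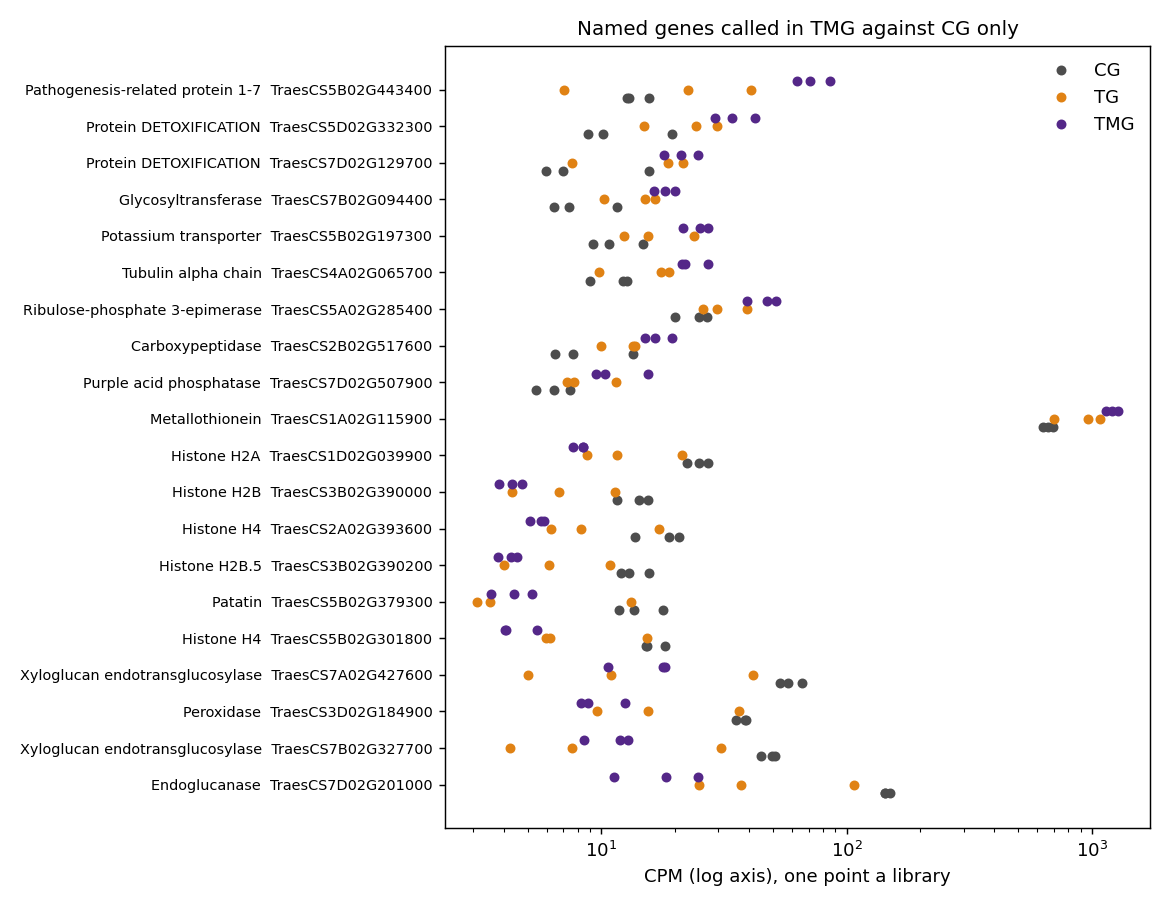
CPM on a log axis of the 20 named genes that were called in TMG against CG and in neither other root comparison, 1 point a library, grey for CG, orange for TG and purple for TMG. CG and TMG points do not overlap for any gene shown, as the choice required, and the orange points lie between them for the endoglucanase (24.9 to 107 CPM) but overlap with either group or lie outside both for other genes, as TG2 and TG3 of the patatin gene do.

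In leaves, which the choice of the list did not use, the genes of the list were looked up in TMY against CY. Of the 7091 genes upregulated in the list, 5903 were tested there, and 24.1% were upregulated and 7.06% downregulated, against 16.6% and 20.6% of all genes tested. Of the 5691 downregulated genes, 4094 were tested, and 29.9% were downregulated and 8.77% upregulated. For all root DEGs the shares in the same direction were 31.7% of those upregulated and 42.9% of those downregulated.

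The lists that follow cover all DEGs of TMG against CG, for which 28.1% of genes tested were upregulated and 28.5% downregulated, and a count near these shares is no result about a list. Defence genes lay far above them among upregulated genes. Of 40 tested pathogenesis-related genes, which encode chitinases, glucanases, thaumatin-like and related antimicrobial proteins, 31 were upregulated and 8 downregulated, with a median of 3.49. The PR-1 gene TraesCS3D02G530800 had 0.0609, 0.179 and 0 CPM in CG, 14.2, 26.6 and 40.0 CPM in TG and 223, 201 and 119 CPM in TMG (11.11 ± 0.43, edgeR adjusted p = 1.05e-08). It was nearly silent in control roots. The chitinase gene TraesCS3D02G260300 had 0.640, 0.286 and 0.673 CPM in CG, 83.8, 76.2 and 45.6 CPM in TG and 230, 182 and 230 CPM in TMG (8.66 ± 0.24, adjusted p = 1.90e-09). For the chitinase gene TraesCS3B02G293200, which had 1 count over the 3 control libraries, the ratio of TMG to CG counts was 4482 (95% interval 804 to 177100, for counting error). Not all members rose, and the glucan endo-1,3-beta-glucosidase gene TraesCS3B02G524800 fell from 204, 199 and 213 CPM in CG to 19.1, 17.8 and 18.2 CPM in TMG (-3.45 ± 0.12, adjusted p = 4.59e-09).

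Catalase decomposes hydrogen peroxide, and the catalase genes TraesCS6D02G048300 and TraesCS6A02G041700 were among the 6 largest rises of described genes with a mean log2 CPM of at least 3. TraesCS6D02G048300 had 1.34, 0.750 and 1.42 CPM in CG, 118, 199 and 126 CPM in TG and 749, 710 and 703 CPM in TMG (9.29 ± 0.22, edgeR adjusted p = 1.64e-09). The 3 groups did not overlap. The list of catalase, superoxide dismutase and ascorbate-glutathione enzymes had 11 upregulated and 9 downregulated of 36 tested genes, near the shares over all genes, and 17 and 8 under library size scaling. Glutathione S-transferases, which couple glutathione to toxic compounds, had 11 upregulated and 5 downregulated of 20.

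Of 429 class III peroxidase genes, 269 were downregulated and 112 upregulated (median -1.76), and 4 of the 6 largest falls of described genes with a mean log2 CPM of at least 3 were in this family. TraesCS2A02G107600 had 250, 249 and 203 CPM in CG, 182, 55.4 and 88.8 CPM in TG and 3.13, 5.86 and 8.13 CPM in TMG (-5.33 ± 0.29, edgeR adjusted p = 9.28e-08). TMG was far below both other groups. TraesCS1D02G080800 rose, from 0.335, 0.679 and 0.523 CPM in CG through 12.4, 18.8 and 15.9 CPM in TG to 96.8, 78.9 and 85.7 CPM in TMG (7.45 ± 0.21, adjusted p = 1.76e-09). The summed level of the family did not follow its counts of DEGs, with 7435 to 8447 CPM in CG and 7268 to 8382 CPM in TMG.

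More genes of wall extension and lignification fell than rose. Of 167 expansin, xyloglucan and cellulose synthase genes, 105 were downregulated and 32 upregulated (median -1.32), and their summed level was 4131, 4561 and 4581 CPM in CG, 4561, 4734 and 5038 CPM in TG and 2554, 2564 and 2409 CPM in TMG. The NaCl libraries lay at the upper end of the control range or above it, and the TMG libraries lay below all others. Of 90 phenylpropanoid and laccase genes, which make and polymerise lignin precursors, 55 were downregulated and 22 upregulated. The summed level was 6414 to 9657 CPM in CG and 3953 to 5068 CPM in TMG. A laccase gene on chromosome 7A (TraesCS7A02G175000) rose by 6.95 ± 0.24, from at most 0.187 CPM in CG to 17.5 to 24.0 CPM in TMG (edgeR adjusted p = 5.56e-09).

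Photosynthesis genes had 59 downregulated and 1 upregulated of 63 tested members, with a median of -5.12, or -4.99 with genes that had no count in a group set at their limit. Their summed level was 342 to 574 CPM in CG, 77.4 to 127 CPM in TG and 25.6 to 33.3 CPM in TMG. These genes include the leaf markers given above, which were likewise lower in TMG in 53 of 56 tested genes, and their part in the result was not tested. The upregulated member, a new gene with a photosystem II domain, had at most 1.72 CPM in any root library.

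By counts of DEGs, osmolyte and dehydration genes were divided. Delta-1-pyrroline-5-carboxylate synthase makes the proline precursor, and its gene TraesCS3D02G357200 had 0.244, 0.357 and 0.448 CPM in CG, 3.08, 3.50 and 3.39 CPM in TG and 8.28, 11.1 and 9.69 CPM in TMG (4.83 ± 0.24, edgeR adjusted p = 4.90e-08). The glutamate decarboxylase gene TraesCS4D02G232700, for the enzyme that makes 4-aminobutyrate, fell from 31.1, 38.7 and 39.1 CPM in CG to 5.88, 6.83 and 6.60 CPM in TMG (-2.47 ± 0.13, adjusted p = 7.36e-08). Of 29 proline and 4-aminobutyrate genes, 14 rose and 11 fell, with a summed level of 814 to 1163 CPM in CG and 662.3 to 694.2 CPM in TMG. Of 18 late embryogenesis abundant and dehydrin genes, whose proteins protect dehydrating cells, 8 rose and 7 fell. The dehydrin gene TraesCS6A02G350700 rose by 5.44 ± 0.27 (adjusted p = 5.08e-08). A new late embryogenesis abundant gene on chromosome 4D fell from 25.37, 23.25 and 29.22 CPM in CG to 4.546, 2.856 and 3.589 CPM in TMG (-2.80 ± 0.17). The summed level of this list was lower in TMG, with 526 to 704.1 CPM in CG, 131.1 to 209.3 CPM in TG and 165.4 to 217 CPM in TMG.

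Of 119 genes for potassium, sodium and proton transport 38 rose and 32 fell, near the shares over all genes, and 58 and 24 under library size scaling. Their summed level was nevertheless lower in TMG, with 5489, 6369 and 6825 CPM in CG, 3456, 3940 and 4167 CPM in TG and 3869, 3882 and 4127 CPM in TMG. The potassium transporter gene TraesCS4A02G410200 had 139, 178 and 183 CPM in CG, 5.69, 5.30 and 15.0 CPM in TG and 17.7, 18.8 and 18.5 CPM in TMG (-3.16 ± 0.14, edgeR adjusted p = 2.10e-08), so TMG was lower than control and somewhat above NaCl alone. Of 150 ABC and DETOXIFICATION transporter genes 59 rose and 33 fell. The sugar exporter gene TraesCS3D02G403300 of the SWEET family fell from 68.4, 101 and 79.2 CPM in CG through 10.1, 6.12 and 8.18 CPM in TG to 1.63, 1.81 and 1.72 CPM in TMG (-5.56 ± 0.18, adjusted p = 3.82e-09).

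Most genes of autophagy itself, the process that 3-MA acts on, were not called. Of 35 tested autophagy and phosphatidylinositol 3-kinase genes, 7 were upregulated and 3 downregulated, and 25 were not called (median 0.08). The summed level was 556, 600 and 574 CPM in CG, 447, 489 and 485 CPM in TG and 603, 621 and 666 CPM in TMG, so the NaCl roots were lowest. An autophagy-related gene, TraesCS2D02G229900, had 49.0, 45.4 and 47.6 CPM in CG, 46.1, 45.9 and 44.7 CPM in TG and 66.9, 66.8 and 67.4 CPM in TMG (0.53 ± 0.10, edgeR adjusted p = 0.000971). The ATG3 gene TraesCS1D02G221700, whose product attaches lipid to ATG8, fell from 42.6, 53.5 and 49.0 CPM in CG to 31.1, 29.7 and 32.1 CPM in TMG (-0.62 ± 0.12, adjusted p = 0.000863). With library size as the only scaling 17 genes of the list were upregulated and 1 downregulated. Transcript levels do not measure autophagic activity.

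In central metabolism, 70 of 125 glycolysis genes were downregulated and 17 upregulated (median -0.48), with summed levels of 11130 to 13290 CPM in CG and 5947 to 6710 CPM in TMG. Of 52 genes of nitrogen uptake and assimilation 18 rose and 18 fell, each not far above the share over all genes. A glutamine synthetase gene (TraesCS4B02G047400), for the enzyme that fixes ammonium, had 1.61, 1.21 and 1.57 CPM in CG, 2.33, 1.37 and 0.250 CPM in TG and 19.1, 26.2 and 31.3 CPM in TMG (4.14 ± 0.21, edgeR adjusted p = 5.94e-08). It rose with 3-MA plus NaCl and overlapped between NaCl and control. The ammonium transporter gene TraesCS6B02G254800 fell from 79.6, 62.3 and 101 CPM in CG to 3.35, 3.14 and 4.43 CPM in TMG (-4.45 ± 0.21, adjusted p = 3.27e-08).

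Among regulators, AP2/ERF transcription factors, a family that includes the cold- and drought-related CBF genes, had 27 downregulated and 10 upregulated of 46. The CBF gene TraesCS7A02G057700 fell from 49.1, 58.0 and 76.0 CPM in CG through 6.15, 3.28 and 1.92 CPM in TG to 1.36, 1.31 and 0.502 CPM in TMG (-5.81 ± 0.29, edgeR adjusted p = 4.76e-08). MYB factors had 23 down and 13 up of 61 genes, and auxin-related genes 70 down and 37 up of 158. WRKY factors had 12 up and 7 down of 26, NAC factors 10 up and 4 down of 16, and heat shock genes 15 down and 2 up of 25. The summed levels of the WRKY, NAC and MYB lists went against these counts. WRKY factors summed to 848.4 to 1107 CPM in CG and 438.2 to 590.5 CPM in TMG. For NAC factors the sums were 789.5 to 919.4 CPM in CG and 347.8 to 388.8 CPM in TMG. MYB factors summed to 467.5 to 534.5 CPM in CG and 653 to 717.5 CPM in TMG. Protein kinases had 155 up and 148 down of 444, each a little above the shares over all genes. Casparian strip and dirigent genes had 69 down and 49 up of 157, pectin enzymes 23 up and 22 down of 63, jasmonate and lipoxygenase genes 13 down and 9 up of 28, and abscisic acid genes 9 down and 6 up of 21. The upregulated shares of the Casparian strip, pectin, jasmonate and abscisic acid lists lay near that over all genes (28.1%). With library size as the only scaling MYB factors had 18 up and 15 down and jasmonate genes 13 up and 10 down, so their balance depends on the scaling. Small lists had 2 aquaporin genes up and 1 down of 5, 2 bHLH genes down of 5, 4 bZIP genes down and 1 up of 9, and 2 lipid transfer genes up and 1 down of 6.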

How the data were processed

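The authors mapped paired reads to the IWGSC Chinese Spring assembly with its Ensembl Plants annotation, added newly assembled genes, and deposited raw counts per gene for each library. The submitters' processing notes name HISAT2 2.0.5 and Bowtie 0.12.2 without giving their roles. The deposited table also holds FPKM values and the authors' own comparisons (DESeq2 group means, log2 fold changes, p-values), which were not used.

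For each comparison its 2 groups were fitted with glmQLFit and glmQLFTest of edgeR 4.0.16 under R 4.3.3, after a low-count filter (filterByExpr) and TMM scaling. Version 1.17.8 of data.table read the input. The difference between roots and leaves was an interaction term in a fit of 12 libraries, chosen after seeing the data, as were the recounts without TG replicate 1 or 2 for gene groups. CPM used TMM factors over 18 libraries, and log2 CPM a pseudocount of 0.5. Alternatives were DESeq2 1.42.0, other scalings and filters, 3 groups in one fit, the replicate block, a fold limit and each library left out. Total counts per library were 27156078 to 33150906, which sets a counting error, and intervals and floors (3 counts) cover that error only. Plots were made with matplotlib 3.10.9 and pandas 2.3.3 under Python 3.11.15.

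The comparison, the gene lists and the rule for named genes were chosen with earlier results of these data known. Gene groups were matched by the description in the table, or by its domain column after values were seen. The named genes have a description, a mean log2 CPM of 3 or more and no overlap between TMG and CG. They are the 6 largest rises and falls among DEGs, the 10 largest rises and falls among genes called in neither other root comparison, and, without a limit on level, members with the lowest p in a group. Other genes named, among them the histone, proteasome and ribosomal protein genes of the list and those at the threshold, were chosen after their values were seen. Each pot held 10 seedlings. The labels take replicates from separate pots, whereas the methods of the study draw each replicate over several pots, so p-values measure the spread between such pooled samples.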

Additional observations from a re-analysis of the deposited data

Results flagged for a closer look

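Among the named genes with the largest changes that were tested in both tissues, 11 had a change from control to 3-MA plus NaCl that differed between roots and leaves by edgeR's test of the difference in a fit of 12 libraries (adjusted p of 0.05 or less). Over the 58554 genes tested in both tissues this difference was called for 27.6%. The 11 genes were not turned into a share of the named genes tested, so they cannot be set against it. The named genes were chosen by their changes in roots, and the test used the same root libraries. A larger change in roots than in leaves was thus favoured by the choice, and these results are a description. The values given are the root log2 fold change minus the leaf log2 fold change.

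More positive changes in roots were found for the catalase gene TraesCS6D02G048300, with a difference of 3.16 (adjusted p = 0.0381), for the WIR1A gene TraesCS5B02G045100 with 6.42 (0.0264), for the alpha tubulin gene TraesCS4A02G065700 with 1.10 (0.00482) and for the metallothionein gene TraesCS1A02G115900 with 1.08 (0.00606). The catalase gene was upregulated in both tissues, in leaves from 3.00, 44.8 and 6.22 CPM in CY to 1086, 1319 and 910 CPM in TMY. Its control leaves were widely spread, so the size of its difference between tissues is uncertain. The 3 control leaf libraries of the WIR1A gene had 3.16, 81.5 and 0.466 CPM, so its leaf change rests on widely spread controls. The peroxidase gene TraesCS3D02G184900 had a difference of 4.07 (0.00222) and the patatin gene TraesCS5B02G379300 one of 1.47 (0.0302), and both were lower in each tissue, with the larger fall on the log2 scale in leaves. Their leaf levels were low, at most 2.69 and 2.47 CPM in any library of CY and TMY, so these leaf changes are uncertain in size.

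More negative changes in roots were found for the peroxidase gene TraesCS7B02G274200, with a difference of -8.87 (2.08e-05), for the SWEET gene TraesCS3D02G403300 with -7.01 (1.67e-05), for the CBF gene TraesCS7A02G057700 with -2.17 (0.0185) and for the H2B genes TraesCS3B02G390200 with -2.82 (0.00105) and TraesCS3B02G390000 with -4.98 (0.000935). The peroxidase gene had at most 0.963 CPM in any leaf library of CY and TMY. In the same libraries the SWEET gene had at most 4.79 CPM, and the H2B genes TraesCS3B02G390200 and TraesCS3B02G390000 at most 1.24 and 2.21 CPM. Of these 5 genes, TraesCS7A02G057700 was downregulated in both tissues.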

How the results depend on the processing

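With a log2 fold change of at least 1 required as well, TMG against CG gave 24260 DEGs (11183 up, 13077 down), and 7813 were called in neither other root comparison (3957 of them up). The 3 root groups in one fit gave 40394 DEGs, 8574 in neither other comparison and 4710 of these up. Leaving out each library in turn gave 36803 to 41097 DEGs (17746 to 20161 up, 19057 to 20936 down), 11202 to 21038 in neither other comparison (6678 to 11252 up, 4437 to 9786 down) and 16036 to 24323 in leaves. The value of 21038 was reached without TG replicate 2. With library size as the only scaling 28916 DEGs were up and 15922 down. The other settings stayed within 1.5 times of these counts. Among the group counts tried under other scalings, DESeq2 or without TG replicate 1, 34 moved by more than 1.5 times and 230 did not. No named gene changed direction under the settings tried. Of the checks of named genes, with new genes of the authors counted apart, 950 were rated the same and 18 weaker. The cause of these differences was not tested.

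Libraries with the same replicate number showed no clear shared deviation (correlations of -0.107 to -0.0154 between CG and TMG, -0.0222 to 0.0709 between CG and TG, -0.0116 to 0.107 between TG and TMG and -0.204 to 0.00394 between CY and TMY). With 3 libraries a group these correlations cannot exclude a pairing by number, and the main fits used none. The replicate block gave 39056 DEGs in TMG against CG (19264 up, 19792 down), 12195 in neither other comparison and 18277 in leaves.

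With 3 libraries a group, a gene that missed the threshold in TG against CG or TMG against TG is not shown to be unchanged there. The median SD of log2 CPM within a group was 0.193 in CG, 0.203 in TG and 0.144 in TMG. Low genes are limited by their counts.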

Other observations

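Small nucleolar RNAs, which guide the modification of ribosomal RNA, were higher in the treated roots. Of 88 snoRNA genes tested in TMG against CG, 41 were upregulated and 0 downregulated in edgeR's test (28.1% and 28.5% over all genes), with a median log2 fold change of 1.16. Of the 41, 16 were called in neither other root comparison (9.65% upregulated over all genes). Their summed level was 71.3, 57.0 and 50.0 CPM in CG, 107, 110 and 122 CPM in TG and 104, 126 and 110 CPM in TMG. The NaCl and the 3-MA plus NaCl libraries overlapped, and all were above the controls. In leaves 10 of 63 were upregulated, near the 16.6% of all genes upregulated there, and 0 were downregulated, against 20.6% of all genes.

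Genes described by transposon domains (reverse transcriptase, integrase or transposase) had 94 upregulated and 121 downregulated of 475 tested, with a median of -0.03, and 37 in each direction were called in neither other comparison. Over all genes the shares were 28.1% up and 28.5% down, and 9.65% up and 7.74% down in neither other comparison. The counts of the transposon list lay under these shares or near them. The new genes of the authors had 2669 upregulated and 2209 downregulated of 11204 tested, both under the shares over all genes, with a median of 0.09. Their summed level was 67440 to 72960 CPM in CG, 62910 to 65280 CPM in TG and 59970 to 63230 CPM in TMG. These lists were chosen after values had been seen.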
